A study of Mus musculus with 3 samples.

Results

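Integrin subunits and the proteins that join them to the actin cytoskeleton were followed in 3 pooled RNA sequencing libraries of mouse mammary cells. The members were every gene named Itga followed by a number or one of the letter codes 2b, d, e, l, m, v and x, every gene from Itgb1 to Itgb8, and 12 named partners. They came to 38 of the 22378 genes listed in each library, with 18 alpha subunits, 8 beta subunits and the 12 partners. The rule used gene names and no measured value, but it was set with earlier results of these data known.

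All 3 groups were mammary material of the FVB strain, with 1 library each. The LCC library held lung-colonizing cells, which are dissociated mammary cells sorted from the lungs of recipient mice 1 day after intravenous injection and recognised by green fluorescent protein or the dye DDAO. For each experiment 8 FVB.GFP female donors and 4 FVB recipients were used, with 2 injections of 2500000 cells. The stained cells came from FVB mice. The library pooled 15 experiments, 42 lungs and 455880 cells. The E-Int29-Hi library held dissociated cells of the gland gated on EpCAM at an intermediate level and on high CD29, the protein encoded by Itgb1, from 3 combined samples. The MG library held gland that was not dissociated, also from 3 combined samples. The labels gave no EpCAM or CD29 gate for LCC and no age for any group.

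An integrin is a heterodimer of an alpha and a beta subunit that spans the membrane and binds matrix proteins or receptors on other cells. Talin and kindlin bind the tail of the beta subunit inside the cell and switch the receptor on. Vinculin, paxillin, focal adhesion kinase and the complex of integrin-linked kinase with parvin then tie it to actin and to signalling. In the mammary gland, laminin-binding integrins anchor the basal myoepithelial layer to the basement membrane, and surface CD29 is used to sort that layer.

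The lists of cell type markers differed widely between the libraries. FPKM is the number of fragments on a gene model adjusted for its length and for the size of the library. Summed FPKM of 8 basal genes was 653 in LCC, 7320 for E-Int29-Hi and 460 for MG, and that of 8 luminal genes was 4130, 287 and 2120. Krt18 and Krt8 made up most of the luminal sum in LCC, at 2370 and 1260 FPKM, against 819 and 624 FPKM in MG. Both sums were larger for LCC than for MG, yet in each list 5 of 8 genes stood below their MG value and 3 above it. The 16 leukocyte genes summed to 316, 57.4 and 219 FPKM across LCC, E-Int29-Hi and MG, of which Cd14 alone gave 51.1, 16 and 130 FPKM. In the same order 8 fibroblast genes summed to 1370, 137 and 2920 FPKM and 8 endothelial genes to 123, 116 and 567 FPKM. The sums of 8 platelet genes were 8.71, 7.75 and 10.3 FPKM. The 8 lung epithelium genes summed to 630 FPKM in LCC, of which Scgb1a1 gave 572, against 10.1 in E-Int29-Hi and 3.14 in MG. Adipoq, the adipocyte hormone adiponectin, stood at 0.019, 0.0765 and 1.12 FPKM, and so was low even in the library labelled as undissociated gland. Car3, another gene known from fat cells, stood at 0.0159, 1.23 and 18.9 FPKM, highest in MG. The amount of fat pad RNA in MG was not tested. Epcam stood at 325, 279 and 209 FPKM. Total read numbers are not known, and between 11033 and 12024 gene names stood at 1 FPKM or more in a library.

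With 1 library per group no test was possible, and every difference describes these pools without a replicate check. In bulk RNA, fewer cells of a type and less RNA per cell cannot be told apart. Changes are given as log2((FPKM + 1)/(FPKM + 1)), which understates the change of low genes. A gene counts as higher or lower when it is at least 4-fold apart on that scale and reaches 1 FPKM in at least 1 of the libraries compared. The 3 comparisons share libraries and so are not independent of each other. For LCC over MG the median log2 change was -1.06 for the 8 luminal markers and -0.94 for the 8 basal markers. Among these, Pgr (-5.25), Elf5 (-3.08), Esr1 (-2.74), Oxtr (-2.42) and Myh11 (-2.02) counted as lower, and 0 as higher.

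The integrin genes Itgam and Itgax encode CD11b and CD11c, alpha subunits of myeloid and dendritic cells. On the reference annotation they are next to each other on chromosome 7 with Itgad, in the order Itgam, Itgax, Itgad. Both stood highest in LCC, and their promoters are shown because neighbouring genes that move together may be compared by sequence. Each runs from 250 bases before to 50 bases after the annotated start on the plus strand (RefSeq, GRCm38.p6; the expression tables were made on another build). In all, 4 motifs were searched on both strands and are marked by capitals. The core of PU.1 sites was spelled GAGGAA. The core of RUNX sites was spelled TGTGGT. The Sp1 box was spelled GGGCGG. The TATA box was spelled TATAAA.
Itgam, chr7:128062390-128062689, plus strand: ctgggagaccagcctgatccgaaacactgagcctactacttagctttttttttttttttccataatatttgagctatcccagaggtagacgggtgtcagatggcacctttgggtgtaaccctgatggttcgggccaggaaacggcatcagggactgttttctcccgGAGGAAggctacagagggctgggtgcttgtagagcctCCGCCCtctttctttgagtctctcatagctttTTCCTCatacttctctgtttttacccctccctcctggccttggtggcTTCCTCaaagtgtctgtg
Itgax, chr7:128129300-128129599, plus strand: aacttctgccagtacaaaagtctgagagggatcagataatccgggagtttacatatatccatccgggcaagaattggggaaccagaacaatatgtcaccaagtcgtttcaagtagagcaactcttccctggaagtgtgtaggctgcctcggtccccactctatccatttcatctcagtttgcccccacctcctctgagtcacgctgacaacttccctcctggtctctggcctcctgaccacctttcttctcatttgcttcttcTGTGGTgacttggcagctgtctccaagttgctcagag

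The Itgam window held 3 copies of the PU.1 core and 1 Sp1 box, and the Itgax window held 1 RUNX core. No motif overlapped another. Among 32851 promoters of the same length, 28.3% held the PU.1 core, 16.8% the RUNX core, 35.7% the Sp1 box and 13.6% the TATA box at least once. These matches describe letters and not bound sites. Of the 38 members, 26 had a promoter sequence.

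Of the 38 members, 36 had an accepted status in all libraries. The value of Itgav in E-Int29-Hi and that of Fermt2 in LCC were marked as failed by the authors' quantification, so both genes are given by value and left out of the counts. Itga10 and Itgad stood under 1 FPKM in every library. Of the other 34 members, 15 (44.1%) were highest in LCC, 12 (35.3%) highest for E-Int29-Hi and 7 (20.6%) highest for MG. Over all 12772 gene names at 1 FPKM or more in any library, the shares were 41.6%, 25.2% and 33.2%.

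**Figure D1:**
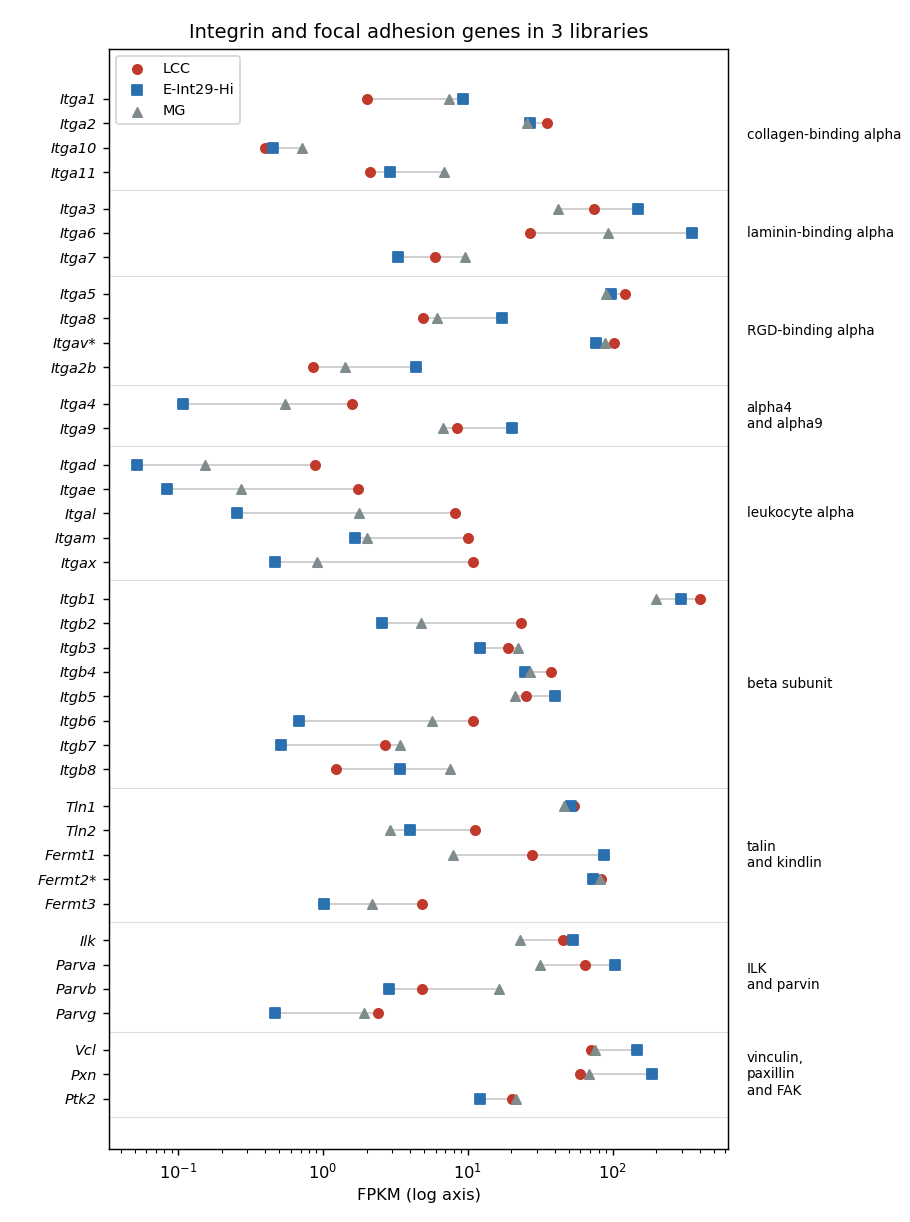
Level of each of the 38 members in FPKM (log axis) in the LCC (circles), E-Int29-Hi (squares) and MG (triangles) libraries, 1 library each, grouped by role; an asterisk marks the 2 genes with a failed status in 1 library. Itgb1 leads in LCC at 401 FPKM and Itga6 in E-Int29-Hi at 351 FPKM, while the leukocyte alpha subunits all stand highest in LCC.

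Among the laminin-binding alpha subunits, Itga6 differed most between LCC and E-Int29-Hi. Itga6, the alpha subunit that pairs with Itgb4 in hemidesmosomes and with Itgb1 elsewhere, stood at 26.8 FPKM in LCC, beside 351 FPKM for E-Int29-Hi and 93.0 FPKM for MG. It was the most abundant member in E-Int29-Hi, number 2 in MG and number 14 of 38 in LCC. Its log2 change was -3.66 for LCC over E-Int29-Hi, at the 0.856th percentile of all genes tested, and -1.76 for LCC over MG. Itga3, which pairs with Itgb1 as a receptor for epithelial laminins, stood at 74.7, 150 and 42.2 FPKM, so LCC lay between the other libraries. The FPKM ratio of Itga6 to Itga3 was 0.359 in LCC, against 2.34 in E-Int29-Hi and 2.20 in MG. Itga7, a laminin receptor subunit best known from muscle, stood at 5.94, 3.30 and 9.51 FPKM.

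Itgb4, the hemidesmosome beta subunit, did not follow Itga6. It stood at 37.4 FPKM in LCC, beside 25.0 FPKM for E-Int29-Hi and 26.9 FPKM for MG, with a log2 change of 0.56 for LCC over E-Int29-Hi. The FPKM ratio of Itga6 to Itgb4 was therefore 0.718 in LCC, 14.1 for E-Int29-Hi and 3.45 for MG. Other hemidesmosome genes were read beside them. Col17a1, a hemidesmosome collagen, stood at 19.4, 115 and 23.3 FPKM, and Dst, which encodes a plakin linker, at 21.8, 132 and 61.2 FPKM. Both were lower in LCC than in E-Int29-Hi (log2 changes of -2.52 and -2.54), whereas Plec, which encodes plectin, stood at 39.7, 24.7 and 87.9 FPKM. All 8 basal markers were also lower in LCC than in E-Int29-Hi (median -3.93), beside 4.35% of all genes. Their part in the Itga6 difference was not tested.

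The collagen-binding alpha subunits pair with Itgb1. Itga2, the epithelial and platelet collagen receptor subunit, stood at 35.4 FPKM in LCC, beside 26.9 FPKM for E-Int29-Hi and 25.6 FPKM for MG, with no log2 change above 0.45 in size. Itga1 stood at 2.0, 9.20 and 7.39 FPKM and was lowest in LCC, by -1.76 (log2) against E-Int29-Hi and -1.48 against MG. Itga11, known from fibroblasts, stood at 2.10, 2.91 and 6.88 FPKM, and Itga10 at 0.400, 0.452 and 0.718 FPKM. Itga11 and the fibroblast markers were both highest in MG. The markers summed lowest in E-Int29-Hi, whereas Itga11 was lowest in LCC, by a small log2 change of -0.33 against E-Int29-Hi.

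Among subunits that recognise the RGD sequence, the abundant ones were level. Itga5, the alpha subunit of the main fibronectin receptor, stood at 121 FPKM in LCC, beside 98.1 FPKM for E-Int29-Hi and 89.9 FPKM for MG. Itgav, which pairs with several beta subunits, stood at 102, 77.4 (failed status) and 88.4 FPKM. Among the 38 members Itga5 ranked number 2 in LCC, 7 for E-Int29-Hi and 3 for MG by FPKM, and Itgav number 3, 9 and 4. Itga8, a nephronectin receptor subunit of mesenchymal and contractile cells, stood at 4.90, 17.2 and 6.14 FPKM. Itga2b, the platelet fibrinogen receptor subunit, stood at 0.857, 4.42 and 1.41 FPKM and was highest in E-Int29-Hi. The 8 platelet genes ran between 0 and 5.91 FPKM in that library, where Gp6 and Treml1 were listed at 0. Of these genes Pf4, a platelet chemokine, stood at 4.33, 5.91 and 5.68 FPKM, highest in E-Int29-Hi but near its MG value. Gp1ba, a platelet adhesion receptor, stood at 0, 0.71 and 0.547 FPKM, also highest in E-Int29-Hi but under 1 FPKM throughout. Ppbp, at 3.73, 0.105 and 0.699 FPKM, was highest in LCC, and all others of the list were highest in MG. The part of platelets in the Itga2b values was not tested.

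The summed FPKM of all alpha subunits was 418 in LCC, 764 for E-Int29-Hi and 384 for MG. Laminin-binding subunits made up 25.7% of that sum in LCC, 66.0% for E-Int29-Hi and 37.7% for MG. RGD-binding subunits made up 54.7%, 25.8% and 48.4%, and collagen-binding subunits 9.55%, 5.17% and 10.6%. Leukocyte subunits made up 7.59% in LCC, 0.331% for E-Int29-Hi and 1.33% for MG. Itga6 alone accounted for 6.43%, 46.0% and 24.2%. Leaving out Itgav for its status gave laminin-binding shares of 34.0%, 73.5% and 49.0%. The RGD-binding shares were then 40.2%, 17.4% and 33.0%, so the larger of these classes in MG changed from RGD-binding to laminin-binding.

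**Figure D2:**
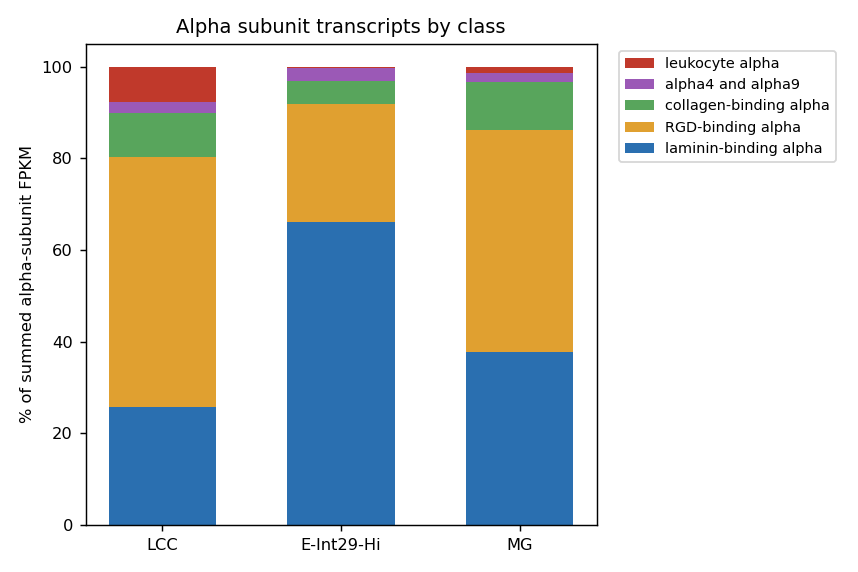
Share of the summed FPKM of the 18 alpha subunit genes (vertical axis, %) held by each ligand class in the LCC, E-Int29-Hi and MG libraries, 1 bar per library with no replicates. Laminin-binding subunits hold 66.0% in E-Int29-Hi, against 25.7% in LCC and 37.7% in MG, and the leukocyte class is visible mainly in LCC at 7.59%. Itgav, in the RGD-binding class, is included although its E-Int29-Hi value had a failed status.

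Itga4 and Itga9 form a small subfamily of alpha subunits. Itga4, a receptor subunit for VCAM1 and fibronectin on leukocytes, stood at 1.58 FPKM in LCC, beside 0.108 FPKM for E-Int29-Hi and 0.543 FPKM for MG. Itga9, which binds tenascin, stood at 8.41, 20.2 and 6.77 FPKM. The order of libraries was thus opposite in the pair for LCC and E-Int29-Hi, with log2 changes of 1.22 and -1.17.

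Of the 5 members higher in LCC than in E-Int29-Hi, 4 were leukocyte subunits. Itgb2, the beta subunit CD18 that is restricted to leukocytes, stood at 23.2 FPKM in LCC, beside 2.54 FPKM for E-Int29-Hi and 4.76 FPKM for MG. Its log2 change was 2.77 against E-Int29-Hi and 2.07 against MG, at the 98.1st and 98.9th percentiles of all genes tested. Of its alpha partners, Itgax stood at 10.8, 0.462 and 0.915 FPKM, with log2 changes of 3.01 and 2.63 for LCC over E-Int29-Hi and over MG. Itgam stood at 10.1, 1.67 and 2.01 FPKM (2.05 and 1.88), and Itgal, which encodes CD11a of lymphocytes and myeloid cells, at 8.17, 0.254 and 1.76 FPKM (2.87 and 1.73). Itgad stood at 0.874, 0.0521 and 0.154 FPKM. Itgae, which pairs with Itgb7 on intraepithelial lymphocytes and some dendritic cells, stood at 1.75, 0.0838 and 0.269 FPKM. Itgb7 itself stood at 2.66, 0.512 and 3.41 FPKM and was highest in MG.

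Most leukocyte markers moved with these subunits. Of the 13 leukocyte markers tested, 7 were higher in LCC than in E-Int29-Hi and 0 lower (median 2.66). The shares of all genes were 4.64% and 4.35%. Ptprc, the pan-leukocyte CD45, stood at 15.3 FPKM in LCC, beside 1.38 FPKM for E-Int29-Hi and 8.13 FPKM for MG. Against MG, 2 of 15 were higher in LCC, Cd52 and Fcer1g, and 0 lower (median 0.83), beside 1.33% and 2.63% of all genes. Above 0 lay 10 of 15, beside 50.3% of all genes. At 2-fold 7 were higher than MG and 1 lower, Cd14 (-1.33), beside 10.9% and 12.8% of all genes. Of the neutrophil genes, Ly6g was listed at 0 in every library and S100a8 stood at 14.6, 0.336 and 9.15 FPKM. The T cell gene Cd3e stood at 1.21, 0.196 and 2.46 FPKM. The FPKM ratio of Itgax to Ptprc was 0.709 in LCC, 0.336 for E-Int29-Hi and 0.113 for MG, and that of Itgam to Ptprc was 0.661, 1.22 and 0.247. Of the 8 dendritic cell markers, 5 were tested for LCC over MG and all 5 lay above 0 (median 1.38), beside 50.3% of all genes. Among them Ccr7 stood at 25.3, 1.82 and 5.60 FPKM. For LCC over E-Int29-Hi 5 of 6 tested lay above 0, beside 60.7% of all genes. The 1 below was Batf3 (-1.03), at 0.35, 1.75 and 0.935 FPKM. Batf3 did not pass the 1 FPKM filter for LCC over MG, where its log2 change was -0.52. Flt3 and Xcr1 were under 1 FPKM throughout. The part of leukocytes among the sorted LCC cells in these values was not tested.

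**Figure D3:**
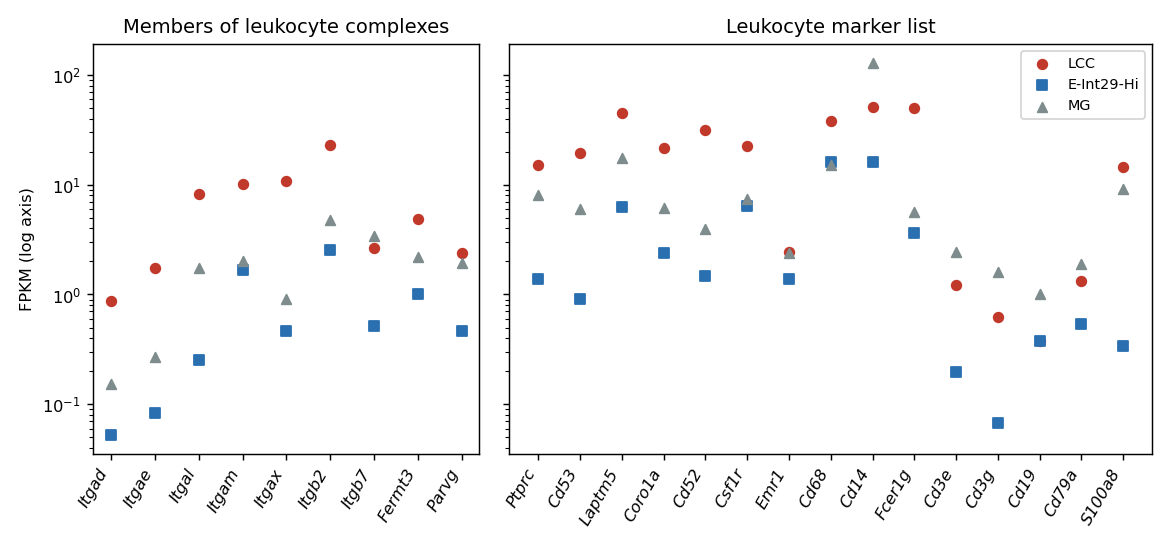
FPKM (log axis) in the LCC (circles), E-Int29-Hi (squares) and MG (triangles) libraries of 9 members known from leukocytes or pairing with leukocyte subunits (left) and of the leukocyte markers above 0 in every library (right). LCC is highest for 8 of the 9 members, the exception being Itgb7 (2.66 against 3.41 FPKM in MG), and E-Int29-Hi is lowest for all 9.

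Itgb1, the beta subunit shared by most matrix-binding integrins, stood at 401 FPKM in LCC, beside 296 FPKM for E-Int29-Hi and 198 FPKM for MG. It held 77.0%, 77.9% and 68.4% of the summed FPKM of the 8 beta subunits. E-Int29-Hi had been sorted for the protein, so its level there is not a finding, and it was lower than that of LCC, for which no CD29 gate is given. Per unit of Epcam the values were 1.23, 1.06 and 0.950.

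The beta subunits that pair with Itgav split by library. Itgb6, an epithelial subunit that binds fibronectin and helps activate latent TGF-beta, stood at 10.9 FPKM in LCC, beside 0.680 FPKM for E-Int29-Hi and 5.63 FPKM for MG. It was higher in LCC than in E-Int29-Hi by 2.82 (log2) and stood 1.98 below MG in E-Int29-Hi, just inside the 4-fold limit. The luminal markers Krt7, Krt8, Krt18 and Krt19 were also higher in LCC than in E-Int29-Hi. That is 4 of 8 luminal markers at 4-fold (median 2.29), beside 4.64% of all genes. In the same list Elf5 (-0.99), Esr1 (-1.23) and Pgr (-1.38) lay below 0. So 2 of 8 were lower at 2-fold and 0 at 4-fold, beside 14.1% and 4.35% of all genes. The part of luminal cells was not tested. Itgb8, the other TGF-beta activating subunit, had the opposite order of LCC and MG, at 1.22, 3.39 and 7.49 FPKM (log2 change of -1.93 for LCC over MG). Itgb5, a vitronectin receptor subunit, stood at 25.3, 39.9 and 21.1 FPKM. Itgb3, which also pairs with Itga2b on platelets, stood at 19.0, 12.1 and 22.2 FPKM.

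Talin and kindlin genes differed mostly outside the widespread forms. Tln1, the widespread talin, was level at 54.0 FPKM in LCC, beside 51.8 FPKM for E-Int29-Hi and 46.3 FPKM for MG. Tln2 stood at 11.3, 3.97 and 2.90 FPKM and was highest in LCC, 2.84 times its FPKM in E-Int29-Hi and 3.89 times that in MG. Fermt1, the kindlin of epithelia, stood at 27.9, 86.9 and 7.94 FPKM. It was the only one of the 31 members tested that passed the limit above MG in E-Int29-Hi (log2 change of 3.30, 99.5th percentile), and for LCC over MG its log2 change was 1.69. Fermt2, the widespread kindlin, stood at 83.8 (failed status), 73.0 and 82.1 FPKM, so the FPKM ratio of Fermt1 to Fermt2 was 0.333, 1.19 and 0.0968. Fermt3, the kindlin of blood cells, stood at 4.86, 1.02 and 2.18 FPKM, and like Itgb2 was highest in LCC and lowest in E-Int29-Hi.

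Among the parvins and their kinase partner, Parva and Ilk were highest in E-Int29-Hi and the other parvins lowest there. Ilk, integrin-linked kinase, stood at 45.4 FPKM in LCC, beside 53.7 FPKM for E-Int29-Hi and 23.0 FPKM for MG, and Parva, the widespread parvin, at 64.4, 104 and 31.5 FPKM. Parvb stood at 4.83, 2.85 and 16.5 FPKM, with a log2 change of -2.19 for E-Int29-Hi over MG, and its log2 change for LCC over MG was -1.59. Parvg, the parvin of blood cells, stood at 2.41, 0.469 and 1.93 FPKM. The FPKM ratio of Parvb to Parva was 0.0751 in LCC, 0.0274 for E-Int29-Hi and 0.525 for MG. On the reference annotation Parvb and Parvg are neighbours on chromosome 15.

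Vinculin and paxillin were highest in E-Int29-Hi and level between the other libraries. Vcl, vinculin, stood at 70.9 FPKM in LCC, beside 148 FPKM for E-Int29-Hi and 75.8 FPKM for MG, and Pxn, paxillin, at 59.4, 187 and 68.6 FPKM. Their log2 changes were -1.05 and -1.64 for LCC over E-Int29-Hi, against -0.09 and -0.20 for LCC over MG. Ptk2, focal adhesion kinase, was instead lowest in E-Int29-Hi, at 20.1, 12.2 and 21.6 FPKM.

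In the count over members, LCC stood higher than E-Int29-Hi for 5 of 34 members (14.7%), against 4.64% of all 12147 genes tested. These were Itgax, Itgal, Itgb6, Itgb2 and Itgam. Lower was 1 of 34, Itga6 (2.94%), against 4.35% of all genes. The median log2 change of the members was 0.41, beside 0.26 over all genes tested, and 20 of 34 members lay above 0, beside 60.7% of all genes. With TPM (each library rescaled to the same sum) 6 of 36 members were higher and 3 lower, against 5.10% and 6.82% of all genes. At 2-fold, 11 members were higher and 8 lower (32.4% and 23.5%), against 21.2% and 14.1% of all genes. The just-called Itgam fell short of the limit at 1.84 once libraries were scaled by median ratios.

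For LCC over MG, 2 of 34 members were higher, Itgax and Itgb2 (5.88%), against 1.33% of all 12443 genes tested, and 0 were lower, against 2.63%. The member median was 0.35, beside 0.01 over all genes, and 21 of 34 members lay above 0, beside 50.3% of all genes. With TPM 1 of 36 members was higher and 4 lower, where the shares of all genes were also shifted, to 1.09% and 6.37%. The medians with TPM were 0.00 for members and -0.413 for all genes. At 2-fold, 9 members were higher and 5 lower (26.5% and 14.7%), against 10.9% and 12.8% of all genes. The higher ones outside the leukocyte subunits were Itgb1 (1.01), Parva (1.01), Fermt1 (1.69) and Tln2 (1.65), and the lower ones Itgb8, Itga6, Parvb, Itga1 and Itga11. Itgb1 and Parva fell short of 2-fold with median ratio scaling (0.93 each) and with TPM (0.63 for Itgb1 and 0.65 for Parva). The 4-fold call of Itgb2 ended with median ratio scaling (1.99) and with TPM (1.84).

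For E-Int29-Hi over MG, 1 of 31 members was higher, Fermt1, and 1 lower, Parvb (3.23% each), near the 2.60% and 3.97% of all 12430 genes tested. The member median was 0.12, beside -0.23 over all genes, and 17 of 31 members lay above 0, beside 38.1% of all genes. With TPM 1 of 34 members was higher and 4 lower, against 2.59% and 6.98% of all genes, and the medians were -0.19 for members and -0.455 for all genes. Without a filter on low values the member median was -0.12. At 2-fold, 9 members were higher (29.0%, against 8.99% of all genes) and 6 lower (19.4%, against 15.5%). The higher ones were Fermt1, Itga6 (1.91), Itga3 (1.80), Parva (1.69), Itga9 (1.45), Pxn (1.44), Itga8 (1.35), Ilk (1.19) and Itga2b (1.17). All 8 basal markers also stood above MG in E-Int29-Hi, 6 of them by 4-fold or more (median 3.33), and their part was not tested. Of all genes 38.1% lay above 0 and 2.60% were higher by 4-fold or more.

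**Figure D4:**
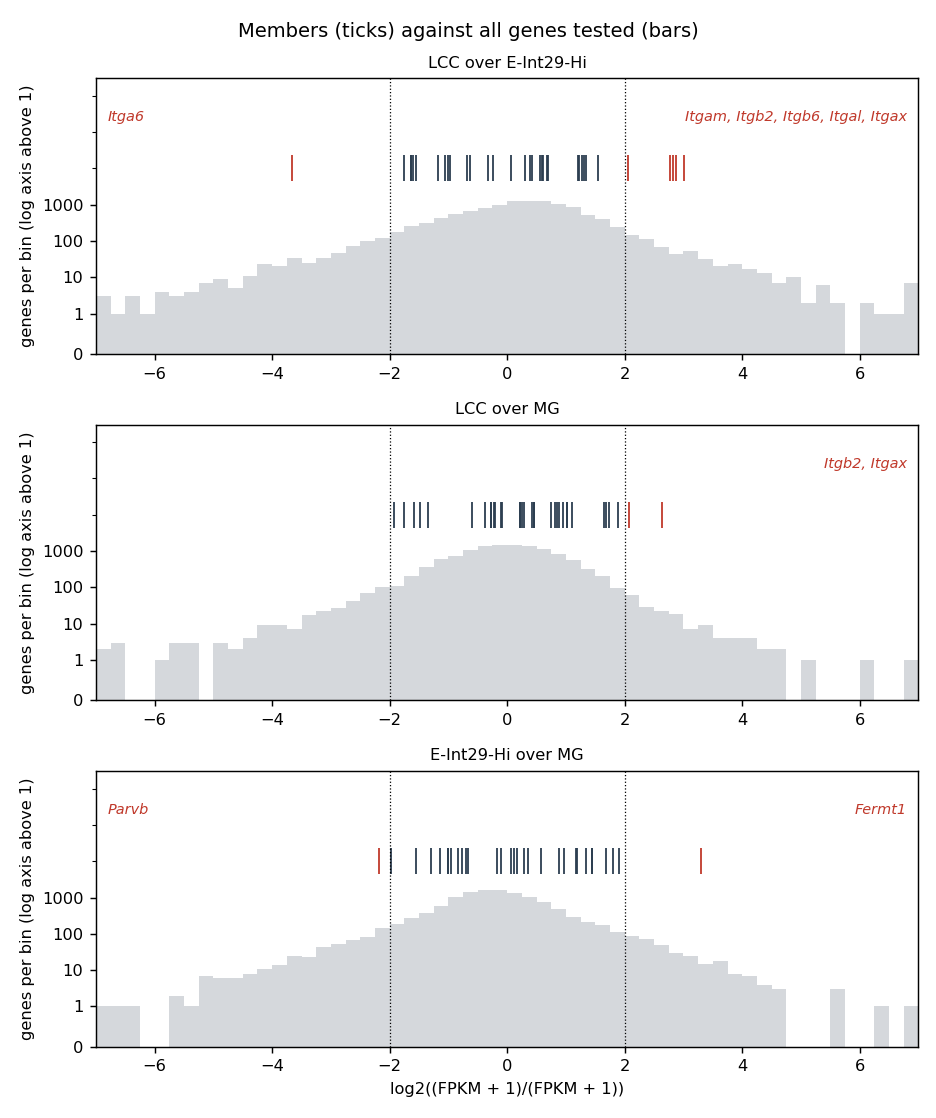
Log2 change of each member (ticks) in the 3 comparisons above the distribution of all genes tested (bars, genes per bin of 0.25, log axis above 1, end bins hold all values beyond); dotted lines mark 4-fold and the named members in red lie outside them. In all, 5 members lie above the limit and 1 below for LCC over E-Int29-Hi, 2 above for LCC over MG, and 1 on each side for E-Int29-Hi over MG.

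Other focal adhesion adaptors, taken from a list of 28 genes outside the members, of which 27 had an accepted status, were counted in the same way. For LCC over E-Int29-Hi, 1 of 27 was higher and 2 lower (3.7% and 7.41%, against 4.64% and 4.35% of all genes; median -0.31). For LCC over MG 0 were higher and 0 lower, against 1.33% and 2.63% of all genes (median 0.32). For E-Int29-Hi over MG 1 was higher and 0 lower (3.7% higher, against 2.60% and 3.97% of all genes; median -0.02). The higher gene in LCC was Apbb1ip, a talin recruiter of blood cells, at 17.6 FPKM in LCC, beside 1.55 FPKM for E-Int29-Hi and 3.75 FPKM for MG. The lower ones were Tns4, a tensin of epithelia, at 12.0, 111 and 37.7 FPKM, and Csrp1, a LIM protein of contractile cells, at 107, 581 and 108 FPKM. Csrp1 was also the gene called above MG in E-Int29-Hi (2.42). At 2-fold, 12 of 27 stood above MG in E-Int29-Hi and 3 below (44.4% and 11.1%, against 8.99% and 15.5% of all genes). Other abundant adaptors were Flna (308, 457 and 113 FPKM), Actn1 (288, 379 and 142 FPKM) and Actn4 (244, 371 and 243 FPKM). These actin crosslinkers also stood highest in E-Int29-Hi, each below Csrp1 there. Bcar1, a docking protein of focal adhesions with a failed status in at least 1 library, stood at 34.4, 148 and 54.8 FPKM.

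Of 10 hemidesmosome and integrin-bound membrane genes, 2 were higher and 2 lower in LCC than in E-Int29-Hi (20% each, against 4.64% and 4.35% of all genes; median 0.15). Against MG, 0 were higher and 0 lower in LCC, beside 1.33% and 2.63% of all genes (median 0.30). The higher ones were Cd82, a tetraspanin, at 165 FPKM in LCC, beside 8.54 FPKM for E-Int29-Hi and 47.7 FPKM for MG, and Cd47, an integrin-associated receptor, at 100, 14.3 and 50.5 FPKM. For E-Int29-Hi over MG, Col17a1 (2.26) and the tetraspanin gene Tspan4 (2.18) were higher and Cd82 (-2.35) lower (20% and 10%, against 2.60% and 3.97% of all genes). Cd151, a tetraspanin bound to laminin receptors, stood at 101, 115 and 37.2 FPKM, and Cd9 at 285, 302 and 254 FPKM.

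Ligands of these integrins were read beside their receptors. Of 21 ligand genes tested, 4 were higher and 1 lower in LCC than in E-Int29-Hi (19% and 4.76%, against 4.64% and 4.35% of all genes; median -0.05). Against MG, 2 were higher and 2 lower in LCC (9.52% each, against 1.33% and 2.63% of all genes; median -0.49). Fn1, fibronectin, stood at 138 FPKM in LCC, beside 15.2 FPKM for E-Int29-Hi and 271 FPKM for MG, while its receptor subunit Itga5 was level. Tnc, tenascin C, stood at 380, 8.39 and 28.8 FPKM, while Itga9 was highest in E-Int29-Hi. Spp1, osteopontin, stood at 24.4, 13.1 and 256 FPKM and was lower in LCC than in MG by -3.34 (log2). Icam1, a ligand of the Itgb2 integrins, stood at 153, 268 and 190 FPKM, and Vcam1, a ligand of Itga4, at 84.5, 70.9 and 41.2 FPKM. The collagen genes Col1a1 and Col1a2 were higher in LCC than in E-Int29-Hi (4.66 and 4.15). Against MG, Lamb3 was higher in LCC (2.14) and Lama5 lower (-2.16). For E-Int29-Hi over MG, 3 ligand genes were higher and 5 lower (median -0.15). These were 14.3% and 23.8%, against 2.60% and 3.97% of all genes. The higher ones were the laminin genes Lama1 (3.64), Lama3 (3.00) and Lamb3 (2.74), while the laminin gene Lama5 stood at -0.55. The lower ones were Col1a1 (-5.15), Col1a2 (-5.03), Spp1 (-4.19), Fn1 (-4.07) and Icam2 (-2.02).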

How the data were processed

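Poly(A) RNA of 3 pooled samples was sequenced on an Illumina HiSeq instrument, per the labels. For every gene the authors deposited a value in FPKM with a quality status. The submitters' processing notes list TopHat 1.4.1, Cufflinks 1.3.0 and build mm9, with no role stated. The gene annotation used is not stated there. Of 22378 genes, 78 had no value. The 22188 with status OK throughout were kept, and 105 names on several gene models were reduced to their highest model, leaving 22077 names. Depth is not known: below 0.1 FPKM the commonest LCC to MG ratio was 1.17, shared by 18 of 331 genes. No read counts were recovered, so no interval is given.

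A pseudocount of 1 FPKM and a filter of 1 FPKM in either library of a comparison were used, and a call is 4-fold. The steps were tested on simulated data. Members and lists were chosen with earlier results of these data known. All members are reported. Of other lists, the 4 most abundant genes and any gene called could be named. Flt3, Xcr1, Batf3, Gp1ba, Gp6, Treml1, Cd3e and Ly6g, outside that rule, were chosen after their values were seen. The same holds for Plec, Cd151, Icam1, Vcam1, Bcar1, Epcam, Adipoq and Car3. Alternatives were other pseudocounts, filters, scalings, gene models, statuses and a 2-fold call. Promoters came from RefSeq (GRCm38.p6). Python 3.11.15, numpy 2.4.6, pandas 2.3.3 and matplotlib 3.10.9 were used.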

Additional observations from a re-analysis of the deposited data

How the results depend on the processing

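All alternatives were chosen with earlier results of these data known. Counts of members at least 4-fold apart are given here, higher and lower ones in turn. They are out of 34 members for both LCC comparisons and 31 for E-Int29-Hi over MG. With TPM they are out of 36, 36 and 34. LCC over E-Int29-Hi gave 10 and 3 with a pseudocount of 0.1 in place of 1, and 0 higher with 5. It gave 4 higher with median ratio scaling, 6 and 3 with TPM, and 11 and 8 at 2-fold. LCC over MG gave 5 and 1 with a pseudocount of 0.1, 0 higher with 5, 1 higher with median ratio scaling, 1 and 4 with TPM, and 9 and 5 at 2-fold. E-Int29-Hi over MG gave 4 lower with a pseudocount of 0.1, 0 lower with 5, 2 higher with median ratio scaling, 4 lower with TPM, and 9 and 6 at 2-fold. A smaller pseudocount widens every change by construction and a larger one narrows it. The shares of all genes moved as well. With 0.1 they were 9.29% higher and 7.80% lower for LCC over E-Int29-Hi, and 2.68% and 6.55% for LCC over MG. For E-Int29-Hi over MG they were 4.19% and 8.76%. With 5 the shares higher were 1.72%, 0.571% and 1.11% for the 3 comparisons in turn. With median ratio scaling these were 3.67%, 1.115% and 3.15%. For the scalings the cause was not tested. The 6 counts did not move without a low-value filter or with one at 5 FPKM. Summing gene models could not move them, as no member name was on several models. Keeping every status added only Itgav and Fermt2, neither of them 4-fold apart, and so left the counts as they were. No called member changed sign. Of 99 member changes, 8 took the other sign under TPM and 2 under median ratio scaling, and their sizes as reported were at most 0.28 and 0.1 (log2). Itga6 stayed at least 4-fold lower in LCC than in E-Int29-Hi, and Fermt1 at least 4-fold higher for E-Int29-Hi over MG, under every alternative run. No paired analysis was possible because each group has 1 library. Values under 1 FPKM rest on an unknown number of reads.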

Other observations

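Relatives by name that are not integrin subunits differed widely in level. Itgb1bp1, which binds the Itgb1 tail, stood at 12.2 FPKM in LCC, 4.52 for E-Int29-Hi and 7.34 for MG. Itgbl1, a secreted protein with repeats like those of beta subunits, stood at 4.09 FPKM in LCC, 0.665 for E-Int29-Hi and 7.74 for MG, and was the one of these genes at least 4-fold apart, with a log2 change of -2.39 for E-Int29-Hi over MG. Its order of libraries was that of the fibroblast markers. Itgb1bp2, Itgb1bp3, Itgb2l and Itgb3bp stood under 0.2 FPKM in every library. Ptk2b, the relative of focal adhesion kinase known from blood cells and neurons, stood at 14.9, 5.40 and 11.8 FPKM, beside 20.1, 12.2 and 21.6 FPKM for Ptk2. These genes were chosen by name after the values of the members were seen.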
